A study of Mus musculus with 8 samples.

Results

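Most proteins that a cell secretes or places in its membranes enter the endoplasmic reticulum (ER) while they are being made. The ribosome docks on the Sec61 channel, the growing chain passes through it, the signal peptidase complex cuts off the leading signal peptide, and the translocon-associated protein (TRAP) complex sits beside the channel and helps certain signal peptides through. In the lung this route is used by fibroblasts and mesothelial cells that secrete matrix, by AT2 cells that secrete surfactant proteins, and by endothelial cells that supply their surface with receptors. Described here are 10 genes of this machinery among the 33027 genes measured, namely the channel subunits Sec61a1, Sec61b and Sec61g, the TRAP subunits Ssr1, Ssr2, Ssr3 and Ssr4, and the signal peptidase subunits Spcs1, Spcs2 and Spcs3. Each symbol was found in 1 row of the gene list. The set was drawn up because Ssr2 passed the test of lower expression after cigarette smoke in 6 cell types. The smoke values of Ssr2 are therefore given as a description with no test. The other 9 genes were taken for their function, but with earlier results of these data known. Their shares beside those of all genes are therefore descriptions too.

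The data are single-cell RNA profiles of the lungs of 8 C57BL/6 mice, littermates by the study's methods, of which 4 had breathed cigarette smoke (CS) over 10 months and 4 room air (RA). All 8 carried the Sftpc-CreERT2-mTmG reporter and had received tamoxifen at 8 to 10 weeks of age, so that cells expressing Sftpc turn from red to green fluorescence. Right lungs were digested with collagenase and elastase and the cells remixed after sorting on the leukocyte protein CD45, so that shares of cell types were partly set by the sort. The CS mice are named C2, C5, D2 and D5, and the RA mice F1, F3, M1 and M3. Every value below is a number of transcripts per 10,000 transcripts of a cell, averaged over the cells of a type in a mouse, so that n counts mice. Differences are given as log2(level + 1) in CS minus RA with the standard error (SE) of limma, and adjusted p-values are those of limma after Benjamini-Hochberg correction over all genes tested in that cell type.

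The 40074 cells used came to between 2553 and 6371 per mouse. All 41106 deposited cells together held 31882952 to 55485617 UMIs per mouse. Of the deposited cells, 394 carried 1 of 197 barcodes that occurred in more than 1 library. There were 22 of 32 annotated types with at least 20 cells in at least 3 mice of each group. Defining markers were present in the 6 types where Ssr2 chose the set. Their summed level in CS and RA mice was 41.5 to 42.9 and 41.7 to 50.5 in mesothelium, 52.5 to 56.8 and 45.4 to 59.0 in aerocytes, 45.2 to 48.9 and 42.5 to 49.0 in ciliated cells, and 80.8 to 87.3 and 70.7 to 95.8 in alveolar fibroblasts. It was lower in CS mice, with no overlap, in gCap cells (a mean of 23.0 in CS mice and 29.9 to 43.8 in RA mice, 1 of 4 markers lower by limma) and adventitial fibroblasts (66.0 to 87.1 and 87.6 to 106, 1 of 3 lower). The part of these markers in the results was not tested. Lpl, on the gCap list, was highest in alveolar macrophages, and Ces1d, on the alveolar fibroblast list, in ciliated cells. Leukocyte markers (Ptprc, Laptm5 and Coro1a together) did not exceed 0.623 in any mouse in these 6 types. The cells under the label NG led with the neutrophil genes S100a8 and S100a9. Sex-linked transcripts went against the labelled sex in all 4 CS mice, with Xist at 7.83 and 8.34 in the libraries labelled male and Ddx3y at 0.925 and 1.08 in those labelled female, and matched it in all 4 RA mice. Exposure labels could not be checked in this way, and no comparison can be made without these 4 libraries.

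Across the 10 genes and 22 types, 210 pairs of a gene and a type passed the filter on rarely found genes. Apart from Ssr2 there were 190, of which 6 (3.16%) fell in CS mice at an adjusted p under 0.05 and 0 rose by limma. Over all genes and types, 0.518% of 172262 tests were lower and 0.712% higher. Of the 6, 5 were Spcs2 and 1 was Sec61b. They became 2 with the sequencing lane as a block, 1 without D5 or M3, 2 without C2, D2, F1 or F3, 3 without C5 and 4 without M1. With the 6 pairs of Ssr2, which are the rule itself, the count was 12, and nothing is read from it. Without Ssr2 and Spcs2, 1 of 168 pairs (0.595%) passed, a share near that of all genes. The remaining 7 genes, Sec61a1, Sec61g, Ssr1, Ssr3, Ssr4, Spcs1 and Spcs3, passed in no type by limma, with 18 of their 146 pairs (12.3%) at an unadjusted p under 0.05, against 15.2% of all tests. The same 8 mice stand behind all 22 types, so the types are not independent repeats. The map of differences shows the row of Spcs2 as blue almost throughout, as is that of Ssr2, whose low values chose the set.

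**Figure D1:**
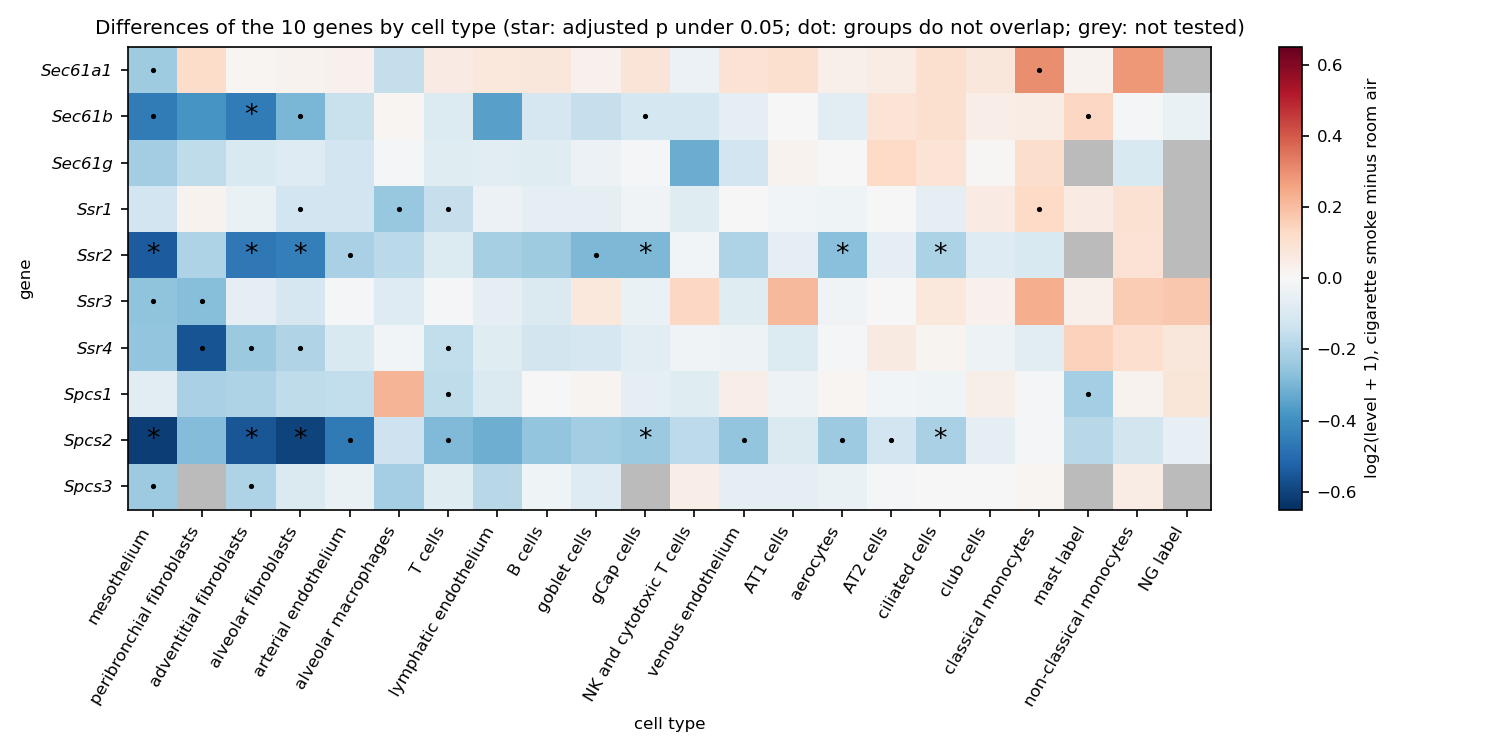
Difference of log2(level + 1), CS minus RA, for the 10 genes (rows) in 22 cell types (columns, ordered by the median of the 10 genes), with blue for lower in CS, stars for an adjusted p under 0.05, dots for groups that do not overlap without passing, and grey for pairs not tested. All 12 stars are in the rows of Ssr2, Spcs2 and Sec61b, and the 6 of Ssr2 are the rule that chose the set and not a result.

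The promoters of the genes that fell are shown beside those of 2 classical ER stress genes, which were among the genes lower in CS mice (below). A RefSeq promoter window (GRCm38.p6, 250 bases before to 50 after the start) was found for 7 of the 10 genes, not for Ssr2, Sec61a1 and Spcs3. The ER stress response element (ERSE), known as a binding site of the stress factors ATF6 and XBP1 together with NF-Y, reads CCAAT, then 9 bases, then CCACG. Below are the 150 bases upstream of the RefSeq start, with CCAAT and CCACG on either strand in capitals, for Spcs2 (chr7:99858884-99859033, minus strand) and Sec61b (chr4:47474511-47474660, plus strand), which fell in the comparisons below, and for Hspa5 (chr2:34771940-34772089, plus strand) and Pdia6 (chr12:17266439-17266588, plus strand), which carry the full element.
Spcs2: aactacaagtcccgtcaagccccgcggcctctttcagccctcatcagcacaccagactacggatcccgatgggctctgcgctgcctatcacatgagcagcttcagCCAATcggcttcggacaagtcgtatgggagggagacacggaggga
Sec61b: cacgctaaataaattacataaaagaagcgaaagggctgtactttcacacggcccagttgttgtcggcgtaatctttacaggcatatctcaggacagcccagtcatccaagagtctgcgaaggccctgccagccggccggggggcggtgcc
Hspa5: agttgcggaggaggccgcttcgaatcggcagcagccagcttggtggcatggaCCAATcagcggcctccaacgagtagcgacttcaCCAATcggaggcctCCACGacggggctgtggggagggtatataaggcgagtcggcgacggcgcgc
Pdia6: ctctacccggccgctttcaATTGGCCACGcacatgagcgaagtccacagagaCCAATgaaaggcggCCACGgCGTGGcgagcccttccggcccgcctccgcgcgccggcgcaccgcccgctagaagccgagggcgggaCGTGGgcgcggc

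Spcs2 has several annotated starts: of its 10 GENCODE M21 transcripts, 4 begin within the printed bases and 4 further upstream, so that the stretch is the promoter of the RefSeq start and lies inside the longest gene model. In Hspa5 the ERSE began at -65 and in Pdia6 at -98, counted from the RefSeq start. None of the 7 windows of the translocon and peptidase genes held an ERSE on either strand, an element found in 0.119% of all 32851 windows of the table. Searched the same way, the 7 windows also held no ERSE-II (ATTGG, 1 base, CCACG, found in 0.0365% of all windows), no TGACGTGG (0.676%) and no TGACGTCA (1.79%). Single parts of the ERSE were present, with CCAAT in 3 of the 7 genes (37.4% of all windows), CCACG in 4 (32.8%), both in 2 (11.7%) and CACGTG in 1, Ssr1, where it overlaps a CCACG (7.15%). Spcs2 carried CCAAT at -45 and CCACG at -246, which is not the spacing of an ERSE, and Sec61b and Ssr4 carried none of these words. Of 15 ER stress genes with a window, 5 held an ERSE (Creld2, Dnajc3, Hsp90b1, Hspa5 and Pdia6) and 2 an ERSE-II. That list was written from known ER stress sensors and targets, and the element is rare among all windows. The difference from the 7 windows is therefore not a result. Manf, an ER stress gene that also fell, is not among these 5 genes. These matches describe letters in a window and not binding.

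**Figure D2:**
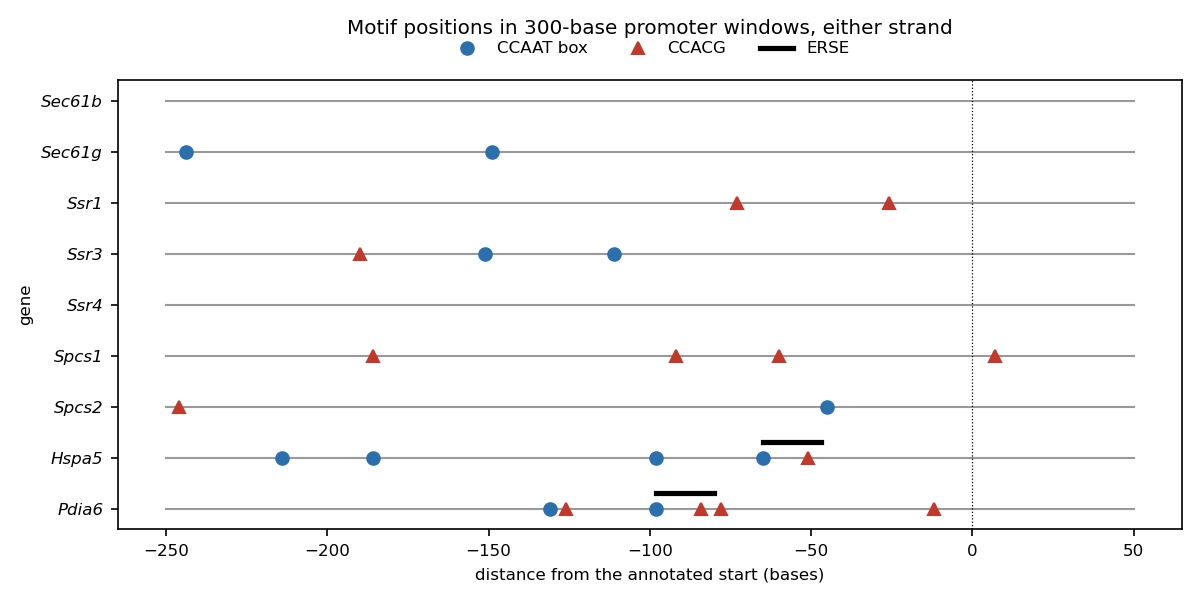
Distance in bases from the annotated start (x axis, dotted line at the start) of each CCAAT (blue circles) and CCACG (red triangles) on either strand in the promoter windows of 7 translocon and peptidase genes and of Hspa5 and Pdia6, plotted at the first base of the match, with a black bar over each ERSE. Bars stand over Hspa5 and Pdia6, at -65 and -98, which were shown because they carry the element, and over none of the 7 genes.

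Sec61a1 encodes the subunit that forms the pore of the channel. Its level in RA mice was highest in mesothelium, at 1.48, 1.27, 1.55 and 1.83 in F1, F3, M1 and M3, and the next mean was that of adventitial fibroblasts, at 1.14, 1.01, 1.17 and 1.07, within the spread of lymphatic endothelium. Its mean was higher in CS mice in most types and lower in 3 of 21 (6 of 21 under quantile normalization and 5 of 21 under median scaling). In the main fit 45.8% of all tests had a mean below 0. No type passed for Sec61a1 by limma (4 types at an unadjusted p under 0.05). In classical monocytes the CS mice held 1.46, 1.30, 0.862 and 0.884 and the RA mice 0.693, 0.699, 0.730 and 0.732. All CS mice lay above all RA mice there, with a log2 difference of 0.30 (SE 0.103, adjusted p = 0.374). In mesothelium the order was the opposite, with 1.18, 1.07 and 1.19 in C5, D2 and D5 below every RA mouse (-0.23, SE 0.0797, adjusted p = 0.242).

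Sec61b encodes the small beta subunit of the channel. In adventitial fibroblasts, the collagen-producing cells around vessels and airways, the CS mice held 2.12, 2.28, 2.25 and 2.09 transcripts per 10,000 and the RA mice 3.07, 3.04, 3.70 and 3.68. The groups did not overlap, so that the CS mouse was necessarily lower in all 4 sequencing lanes, each of which held 1 CS and 1 RA mouse. The level fell by 0.45 on the log2 scale (SE 0.0917, adjusted p = 0.0316), in a type where 1.19% of 9406 genes fell. That call was lost with the lane as a block (adjusted p = 0.103) and when any of the 8 mice was left out, at adjusted p = 0.0510 to 0.0776. The mean was also lower without passing in alveolar fibroblasts, with a CS level of 1.49 ± 0.104 and an RA level of 2.06 ± 0.184 (SD, n = 4 each; adjusted p = 0.0718), and in mesothelium, with 2.51 ± 0.222 (n = 3) and 3.85 ± 0.813 (n = 4; adjusted p = 0.176). In ciliated cells the Sec61b mean was on the other side, at 2.78 in CS and 2.52 in RA mice (adjusted p = 0.263). The highest level of Sec61b in RA mice was in classical monocytes, at 6.43, 5.46, 6.06 and 5.85, where the CS mice held 6.02, 7.13, 6.00 and 5.60. Mesothelium held 3.63, 2.91, 4.01 and 4.86 in RA mice, the next highest mean, but was above alveolar macrophages in 1 of 4 mice, so that their order is not settled.

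Sec61g encodes the gamma subunit. Its highest RA means were in mesothelium, at 0.4931, 0.665, 1.202 and 1.32 in F1, F3, M1 and M3, and in adventitial fibroblasts, at 0.447, 0.602, 1.122 and 1.40, within the spread of each other. The spread between mice of a group was wide, and in 0 of 20 types did the CS and RA mice separate. In 14 of 17 types with all 4 RA mice, both RA mice labelled female (F1 and F3) lay below both labelled male (M1 and M3). Among CS mice, C5 was the lowest in 16 of 18 types and D5 the highest in 14. Xist was high in C2 (7.83) and C5 (8.34), labelled male, and Ddx3y in D2 (0.925) and D5 (1.08), labelled female. C2 was not the lowest CS mouse, nor D2 the highest, in most types. The share of all genes with such an order of the RA mice is not given. The part of sex in this spread was not tested. No other member had 1 CS mouse lowest in more than 14 types.

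**Figure D3:**
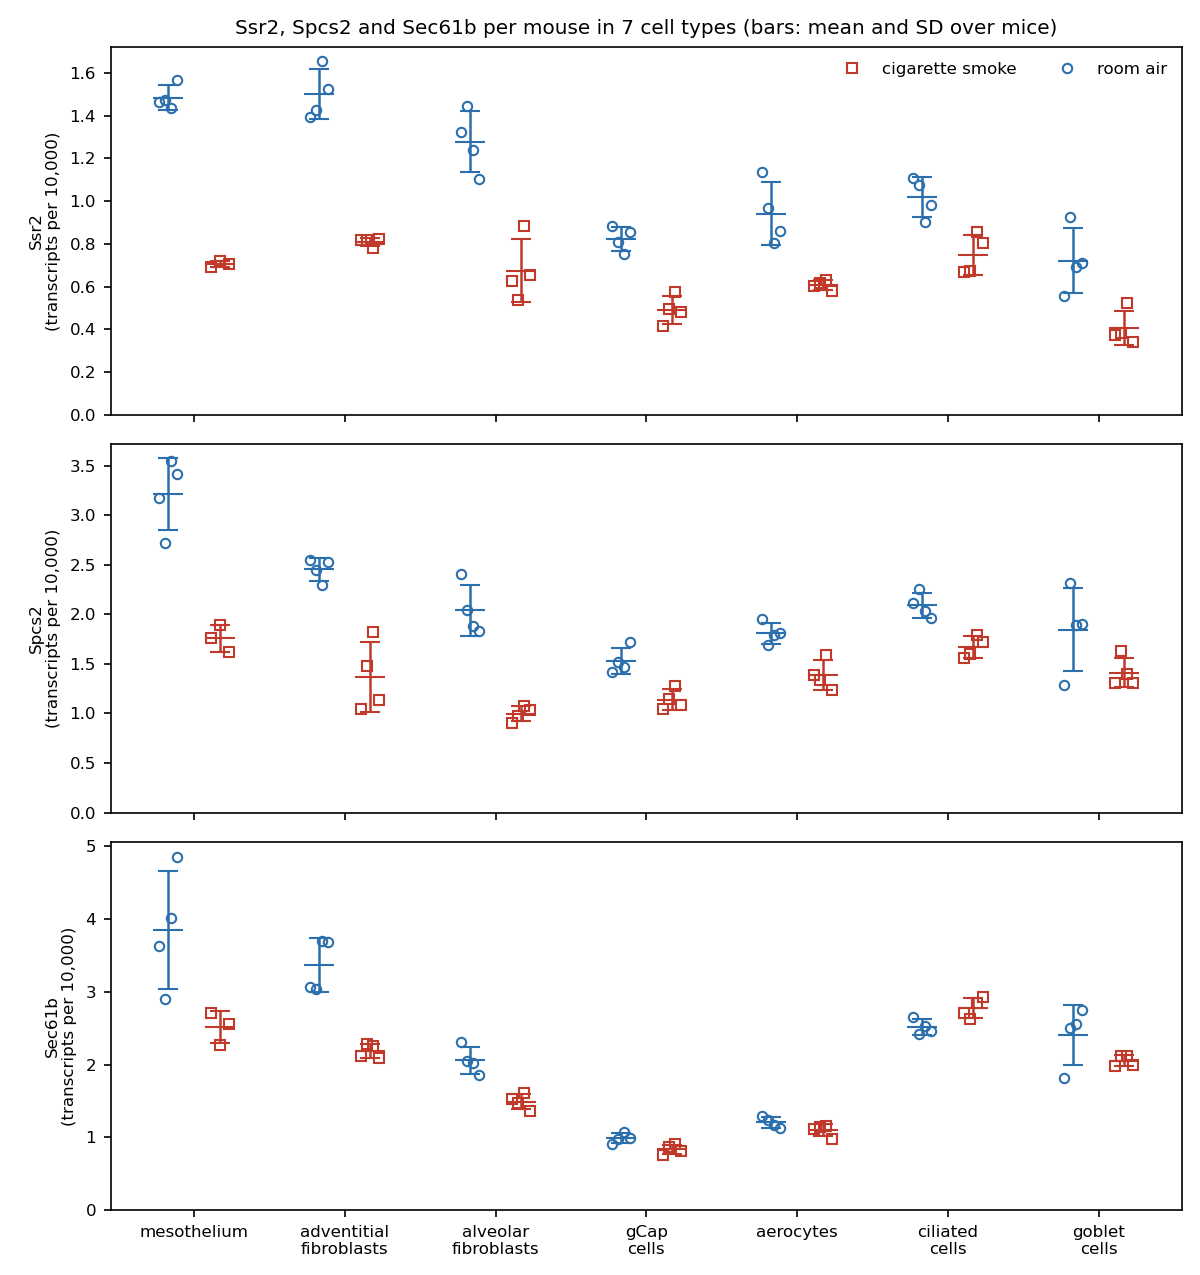
Levels of Ssr2, Spcs2 and Sec61b in transcripts per 10,000 (y axis, from 0) in RA mice (blue circles) and CS mice (red squares) in the 6 types that chose the set and in goblet cells, with bars for the mean and SD over mice. Each point is a mouse. For Ssr2 all CS points lie below all RA points in all 7 types, and for Spcs2 in the first 6.

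Ssr2 encodes the beta subunit of the TRAP complex, and its low values in CS mice define the set. In mesothelium, the sheet that covers the lung, CS mice C5, D2 and D5 held 0.693, 0.719 and 0.704 and RA mice 1.46, 1.47, 1.43 and 1.57, a ratio of 0.475. Mouse C2 had 9 mesothelial cells and is left out of this type. In adventitial fibroblasts the CS values were 0.817, 0.820, 0.781 and 0.821 and the RA values 1.39, 1.43, 1.65 and 1.53, a ratio of 0.540. Both types show CS mice that differ little from each other and stand well below every RA mouse.

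Alveolar fibroblasts, which sit in the walls of the air sacs, had 0.626, 0.539, 0.884 and 0.653 in CS mice and 1.32, 1.45, 1.24 and 1.10 in RA mice (ratio 0.529). In gCap cells, the general capillary endothelium, the values were 0.415, 0.494, 0.574 and 0.481 against 0.882, 0.808, 0.753 and 0.855 (ratio 0.595). Aerocytes, the capillary cells specialized for gas exchange, held 0.601, 0.615, 0.632 and 0.582 against 1.14, 0.969, 0.804 and 0.858 (ratio 0.645). The smallest of the 6 differences was in ciliated cells, at 0.669, 0.673, 0.853 and 0.803 against 1.11, 1.08, 0.903 and 0.982 (ratio 0.737). The share of all genes that passed as lower in aerocytes was 0.989%. All CS mice lay below all RA mice in each of these 4 types, which were themselves chosen for low Ssr2.

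Ciliated cells were the type just inside the threshold. Goblet cells were the first type outside it, with 0.375, 0.385, 0.523 and 0.340 in CS mice and 0.558, 0.926, 0.690 and 0.7104 in RA mice, a ratio of 0.563. There too the groups did not overlap, although there were 23 to 137 goblet cells per mouse. Ssr2 was lower on average in CS mice in 19 of 20 types, the exception being non-classical monocytes (0.357 in CS and 0.266 in RA mice). AT1 cells, the flat cells of the alveolar surface, held the highest Ssr2 level in RA mice, at 1.88, 2.64, 2.20 and 2.39, and kept 2.34, 2.11, 2.24 and 1.84 in CS mice. AT2 cells also differed little, at 1.29 in CS and 1.39 in RA mice.

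The other 3 TRAP subunits passed in no type. Ssr4, the delta subunit, had all CS mice below all RA mice in 4 of 22 types, a non-overlap found in 4.67% of all tests (the opposite non-overlap in 6.01%). In adventitial fibroblasts the CS mice held 2.57, 2.76, 2.63 and 2.14 and the RA mice 2.899, 3.05, 3.49 and 3.19 (log2 difference -0.24, SE 0.0945, adjusted p = 0.163). Mesothelium held 3.27, 2.63, 3.38 and 3.28 of Ssr4 in RA mice, and the levels of these highest 2 types differed by less than the spread between mice. In peribronchial fibroblasts, Ssr4 stood at 1.17 ± 0.209 in CS mice against 2.20 ± 0.227 (SD, n = 3 each), with an adjusted p of 0.479.

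Ssr1, the alpha subunit, had its highest RA levels in alveolar fibroblasts, at 1.61, 1.48, 1.57 and 1.43, and in adventitial fibroblasts, at 1.41, 1.42, 1.38 and 1.35. In the latter, the CS mice held 1.11, 1.47, 1.204 and 1.52 of Ssr1 and overlapped the RA mice. Ssr3, the gamma subunit, had its highest RA means in mesothelium, at 1.83, 1.76, 2.20 and 2.19, and in alveolar macrophages, at 1.75, 1.58, 2.07 and 1.48, which differed by less than the SD of the within-mouse differences. In mesothelium the 3 CS mice held 1.49, 1.504 and 1.49 of Ssr3, all below the RA mice (log2 difference -0.26, SE 0.0776, adjusted p = 0.199). The median log2 difference over types was -0.08 for Ssr4, -0.04 for Ssr1 and -0.01 for Ssr3. When counts were summed per mouse, these medians were -0.04, -0.03 and 0.01. That of Ssr2 was -0.20, but its low values chose the set, so its distance from the other subunits is not a result.

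Spcs2 encodes an accessory subunit of the signal peptidase complex and was the member other than Ssr2 with the most calls. Its mean was lower in CS mice in all 22 types tested, where 45.8% of all tests had a mean below 0, and all CS mice lay below all RA mice in 10 (45.5%), against 4.67% of all tests. In alveolar fibroblasts the CS mice held 0.903, 0.975, 1.08 and 1.03 and the RA mice 2.40, 2.05, 1.89 and 1.83, so that the highest CS mouse was well below the lowest RA mouse. The level fell by 0.60 on the log2 scale (SE 0.0796, adjusted p = 0.00542, ratio 0.488), in a type where 0.672% of genes fell. This call held with each of the 8 mice left out and with the lane as a block (adjusted p = 0.0339).

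Mesothelium had 1.76, 1.90 and 1.62 in CS mice C5, D2 and D5 and 3.18, 2.73, 3.55 and 3.42 in RA mice. Spcs2 fell there by 0.61 (SE 0.0913, adjusted p = 0.0289, ratio 0.546), where 0.234% of genes fell. The call held with the lane as a block (adjusted p = 0.0343), a fit that also leaves out F1, which shared its lane with C2. It was lost without C5, D2, D5, F1, M1 or M3, at adjusted p = 0.0509 to 0.155, and with counts summed per mouse (0.0906). Adventitial fibroblasts had 1.05, 1.48, 1.82 and 1.14 in CS mice and 2.55, 2.45, 2.30 and 2.53 in RA mice, with a fall of 0.56 (SE 0.103, adjusted p = 0.0236, ratio 0.558). Here the call was lost with the lane as a block (adjusted p = 0.0862) and without C2, D5, F1, F3 or M3 (adjusted p = 0.0510 to 0.0698).

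In gCap cells the CS mice held 1.05, 1.15, 1.28 and 1.09 of Spcs2 and the RA mice 1.42, 1.52, 1.47 and 1.72. The fall was 0.24 (SE 0.0567, adjusted p = 0.0336, ratio 0.744), in a type where 3.97% of the genes tested were lower. Without C2, D2, D5, F3 or M3 the adjusted p was 0.0544 to 0.101, and it was 0.0734 with the lane as a block. Ciliated cells had 1.56, 1.60, 1.79 and 1.73 in CS mice and 2.11, 2.25, 2.04 and 1.96 in RA mice, a fall of 0.21 (SE 0.0508, adjusted p = 0.0435, ratio 0.799), where 1.91% of genes fell. This call was the least firm, being lost with any of the 8 mice left out (adjusted p = 0.0543 to 0.128), with the lane as a block (0.0969) and with counts summed per mouse (0.0542). The groups did not overlap in any of these 5 types.

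Spcs2 also stood lower without passing in aerocytes, at 1.39 ± 0.149 in CS mice against 1.81 ± 0.106 (SD, n = 4 each; adjusted p = 0.0750), and in arterial endothelium, at 1.15 ± 0.196 and 1.96 ± 0.226 (adjusted p = 0.0631). In AT2 cells, where 0 of 9032 genes passed by limma in either direction and 671 had an unadjusted p under 0.05, the CS mice held 1.57, 1.91, 1.91 and 1.70 and the RA mice 1.95, 2.003, 2.16 and 1.96. They did not overlap, at a log2 difference of -0.12 (SE 0.0694, adjusted p = 0.740). The nearest to no difference was in classical monocytes, at -0.01.

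Spcs1 and Spcs3 are the other subunits of the signal peptidase that were followed. Spcs1 was highest in ciliated cells, at 3.11, 3.07, 2.89 and 2.64 in RA mice and 2.78, 2.81, 3.21 and 2.63 in CS mice, so that its groups overlapped in a type where Spcs2 fell. In adventitial fibroblasts, whose level was within the spread of AT1 cells, Spcs1 held 1.504, 1.95, 1.80 and 1.46 in CS and 1.79, 1.97, 2.17 and 2.37 in RA mice (adjusted p = 0.222). Spcs3 was highest in alveolar macrophages, at 0.975, 0.728, 1.42 and 0.915 in RA mice, and next in adventitial fibroblasts, at 0.492, 0.535, 0.687 and 0.778. In the latter the CS mice held 0.452, 0.405, 0.345 and 0.428 of Spcs3, all below the RA mice (log2 difference -0.20, SE 0.0636, adjusted p = 0.0972).

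The members other than Ssr2 can be read by cell type as well. In mesothelium all 9 had a lower mean in CS mice, with a median log2 difference of -0.24 against 0.00 over all genes tested there. Lower means there were not particular to the members. Of the lists below, they were found in 19 of 19 EMC, GET and multipass genes, 17 of 18 ER stress genes and 11 of 12 oligosaccharyltransferase genes. The counts were 7 of 8 for the signal recognition particle and its receptor, 5 of 7 for other translocon genes and 8 of 12 for COPII. Medians were -0.24 in peribronchial fibroblasts (8 members tested), -0.20 in adventitial and -0.13 in alveolar fibroblasts. In ciliated cells, where Spcs2 fell, 3 of 9 had a lower mean, at a median of 0.02. Classical and non-classical monocytes both had a median of 0.05.

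Genes expressed in response to tissue digestion, such as Fos, Jun and Egr1, moved with exposure in part of these types. Their summed level in gCap cells was 40.8 to 68.3 in CS and 76.6 to 114 in RA mice, with 4 of 9 genes lower, and in ciliated cells 46.3 to 92.1 and 83.2 to 121, with 2 of 9 lower. In adventitial fibroblasts it was 104 to 122 and 118 to 141, with 1 of 9 lower. No gene of this list passed by limma in aerocytes, alveolar fibroblasts or mesothelium. The part of this response in the differences of Ssr2 and Spcs2 was not tested. Between 37.2 and 2763.5 UMIs per mouse stood behind each level of the called pairs and of Ssr2 in goblet cells, the fewest in alveolar fibroblasts of CS mice.

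In RA mice the summed level of the 10 genes was highest in mesothelium, at 19.4 ± 2.40 (SD, n = 4), followed by adventitial fibroblasts at 18.1 ± 1.67, classical monocytes at 16.7 ± 1.56, alveolar macrophages at 15.0 ± 1.90 and AT2 cells at 13.5 ± 0.704. The lowest levels were in the cells labelled mast, at 7.11 ± 0.675 (n = 3), and NG, at 4.21 ± 0.376, so that mesothelium stood 4.62-fold above the NG label. Of the 21 pairs of neighbours in this order, 6 differed by more than the SD of the within-mouse differences, among them mesothelium from adventitial fibroblasts and the mast label from the NG label. That rule is a description and does not settle an order: mesothelium was above adventitial fibroblasts in 3 of 4 mice (mean difference 1.32, SD 1.16). The other 15 pairs differed by no more than that SD. Because Ssr2 chose the set, CS and RA mice are set side by side for the sum of the other 9 genes. It was 12.7 ± 0.337 in CS (n = 3) and 17.9 ± 2.38 in RA mice in mesothelium, 12.8 ± 0.595 and 16.6 ± 1.58 in adventitial fibroblasts, and 17.02 ± 1.37 and 15.9 ± 1.31 in classical monocytes, which held the highest CS mean. Alveolar fibroblasts stood at 8.83 ± 0.235 and 11.5 ± 0.744, at rank 10 in CS and rank 6 in RA mice. Types were clustered by the authors on expression, so these levels were described and not tested.

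**Figure D4:**
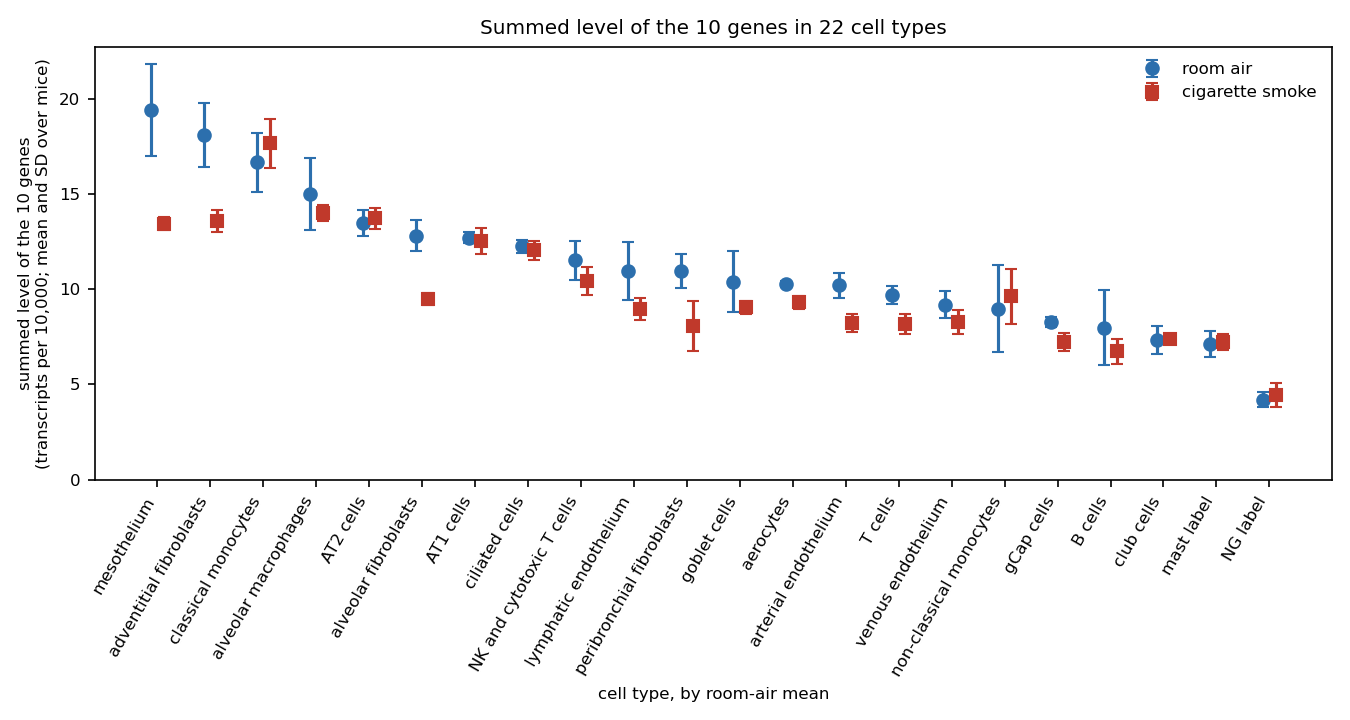
Summed level of the 10 genes in transcripts per 10,000 (y axis, from 0) in 22 cell types ordered by the RA mean, with the mean over RA mice as blue circles, that over CS mice as red squares and bars for the SD over 3 or 4 mice. The CS mean lies below the RA mean in mesothelium (13.4 and 19.4), adventitial fibroblasts (13.6 and 18.1) and alveolar fibroblasts (9.50 and 12.8), and above it in classical monocytes (17.7 and 16.7), sums that include Ssr2, whose low CS values chose the set.

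The members did not peak together. Ssr2 was highest in AT1 cells, Spcs1 in ciliated cells, Spcs3 in alveolar macrophages and Sec61b in classical monocytes. Over the 22 types, the RA level of a member on the log2 scale followed that of the other 9 with Pearson's r between 0.472 for Sec61b and 0.911 for Sec61g, values that share the libraries and the depth of each type. Among 7169 other genes, those most like the members over the 22 types were Ndufb6 (Pearson's r = 0.911), Ddost (0.911), Ndufb10 (0.900), Atp5g1 (0.889) and Wdr83os (0.887). Ddost is a subunit of the oligosaccharyltransferase, while Ndufb6, Ndufb10 and Atp5g1 belong to mitochondrial respiratory complexes.

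Other genes of the pathway were read from lists. The signal recognition particle and its receptor, which bring the ribosome to the channel, had 0 of 151 tests lower or higher by limma, with 19 (12.6%) at an unadjusted p under 0.05. The 7 other translocon genes measured had 2 of 133 tests lower (1.5%) and 1 higher (0.752%), against 0.518% and 0.712% of all tests. Sec11c, a catalytic subunit of the signal peptidase, fell in adventitial fibroblasts from 0.785 ± 0.0311 in RA to 0.417 ± 0.0781 in CS mice (SD, n = 4 each; log2 difference -0.33, adjusted p = 0.0172), a call lost with the lane as a block (0.0769) and without F1 (0.0545) or M3 (0.0549). Sec11a, the other catalytic subunit, fell in ciliated cells from 1.15 ± 0.0726 to 0.924 ± 0.0330 (-0.16, adjusted p = 0.0406), a call lost with the lane as a block (0.0920) and with any mouse left out (0.0538 to 0.117). Tram2, a helper of the channel, rose in gCap cells from 0.297 ± 0.0330 to 0.465 ± 0.0531 (0.18, adjusted p = 0.0274), a call lost with the lane as a block (0.0646) and without C2 (0.0777), D5 (0.0863) or F3 (0.0672).

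The oligosaccharyltransferase, which attaches sugar chains to proteins as they enter the ER, had 6 of 253 tests lower (2.37%, against 0.518% of all tests) and 0 higher by limma, 52 being at an unadjusted p under 0.05, with a median log2 difference of -0.06. Magt1 fell in 3 types (gCap cells, adventitial and alveolar fibroblasts), Ostc in 2 (aerocytes and mesothelium) and Krtcap2 in 1 (aerocytes). The Magt1 call in adventitial fibroblasts (adjusted p = 0.0392) was lost with the lane as a block (0.108) and with any mouse left out (0.0571 to 0.0903), and that of Krtcap2 (0.0459) with the lane (0.0743), with a pseudocount of 0.1 (0.0505) and without C2, C5, D2, D5, F3 or M3 (0.0788 to 0.145). Ostc in mesothelium went from 1.35 ± 0.144 in RA (n = 4) to 0.756 ± 0.0823 in CS mice (n = 3; adjusted p = 0.0330), a call lost without C5, D2, D5, F3, M1 or M3 (0.0700 to 0.179). The 20 genes measured of the EMC, GET and multipass insertion routes had 0 of 342 tests lower or higher by limma (51, or 14.9%, at an unadjusted p under 0.05), and the COPII coat, which carries proteins out of the ER, had 0 of 246 (43, or 17.5%, at an unadjusted p under 0.05). These shares stand beside 15.2% of all tests. Their medians were -0.03 and 0.02.

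The list of ER stress sensors and their targets had by far the most calls, with 55 of 374 tests lower (14.7%, against 0.518% of all tests) and 0 higher by limma, from 12 of its 18 genes in 8 types, and a median of -0.16 against 0.01 over all genes. In mesothelium 8 of 18 fell (0.234% of all genes there), in adventitial fibroblasts 12 of 18 (1.19%) and in alveolar fibroblasts 8 of 18 (0.672%). With the lane as a block these 3 counts were 12, 6 and 7. The 55 became 36 with the lane, 34 without D2 and 23 without D5. With a mouse left out, the count was 1 to 10 in mesothelium, where it was 1 without D5 or M1, 2 without D2 and 3 without C5, 7 to 11 in adventitial fibroblasts, where it was 7 without M3, and 8 in each case in alveolar fibroblasts. Pdia6, an ER protein that makes and breaks disulfide bonds, fell in 8 types, in mesothelium from 5.39 ± 1.55 in RA (SD, n = 4) to 2.21 ± 0.235 in CS mice (n = 3; log2 difference -0.96, adjusted p = 0.0439). Manf, a secreted ER stress protein, fell in 7 types, in mesothelium from 6.63 ± 1.24 to 1.78 ± 0.273 (-1.45, adjusted p = 0.00574). Hspa5, the main ER chaperone BiP, fell in 6 types, in mesothelium from 17.2 ± 3.94 to 6.43 ± 0.874 (-1.28, adjusted p = 0.0203). Creld2 also fell in 6 types, in mesothelium from 1.66 ± 0.670 to 0.268 ± 0.0720 (-1.03, adjusted p = 0.0292). Of these mesothelial calls, that of Manf held with each mouse left out, that of Hspa5 was lost without D2, D5 or M1 (adjusted p = 0.0774 to 0.118), that of Creld2 without C5, D2, D5 or M1 (0.0838 to 0.173) and that of Pdia6 without C5, D2, D5, F1, M1 or M3 (0.0565 to 0.212). Earlier results of these data were known when this list was drawn up, and no test compared it with the other lists.

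**Figure D5:**
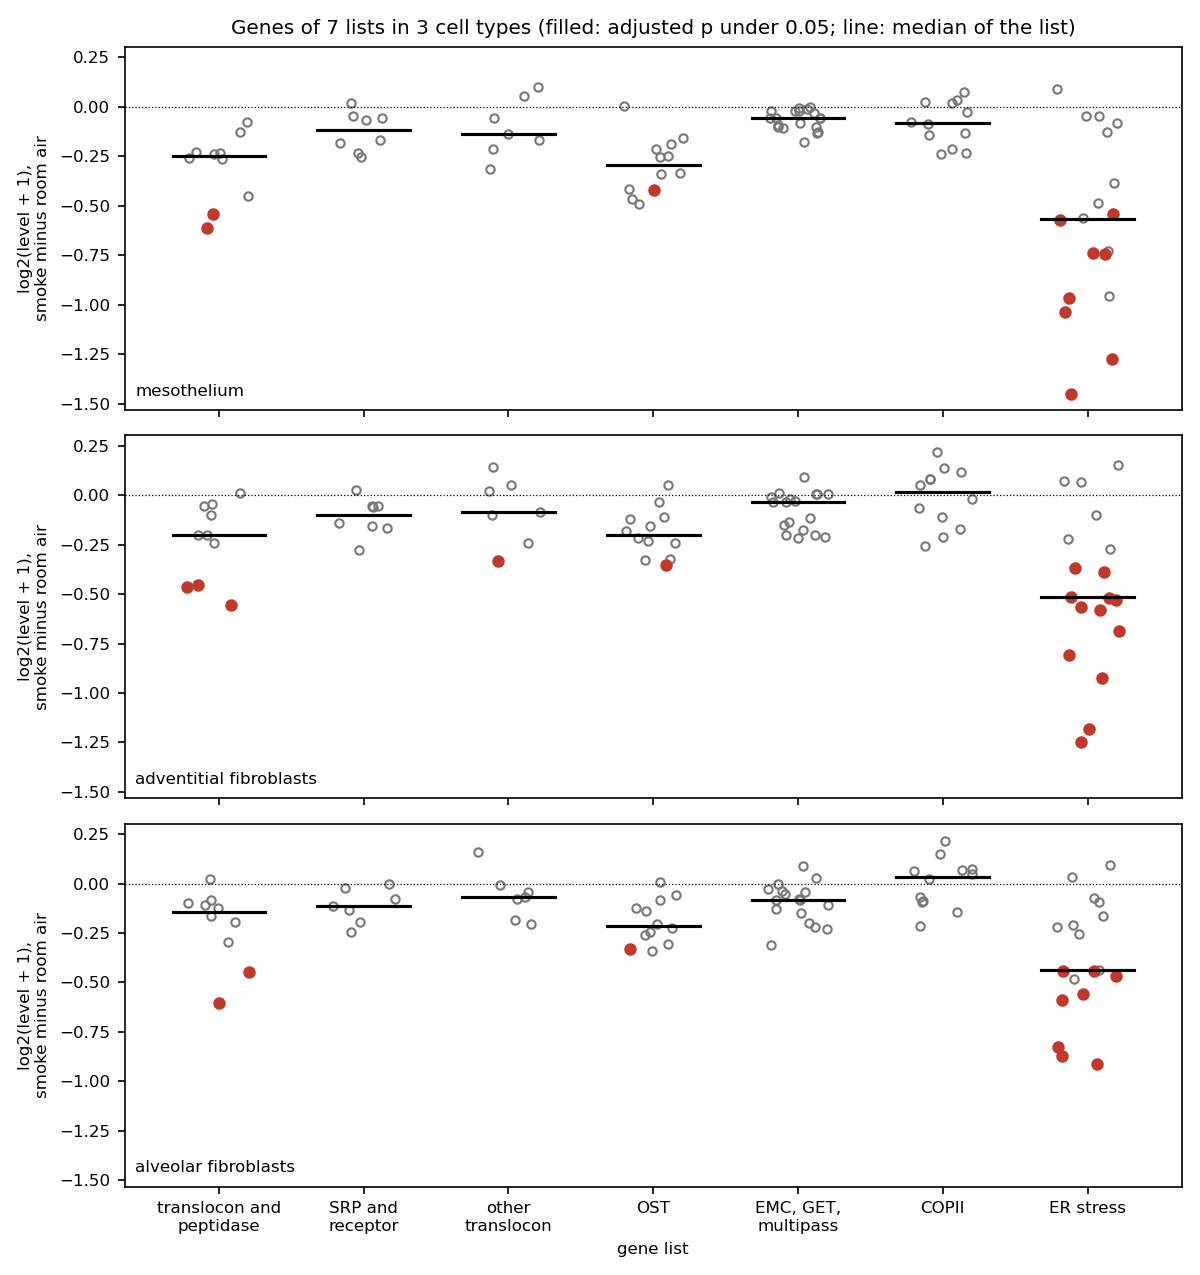
Difference of log2(level + 1), CS minus RA, of each tested gene of 7 lists (x axis) in mesothelium, adventitial fibroblasts and alveolar fibroblasts, with filled red points for an adjusted p under 0.05 and a black line at the median of the list. The medians of the translocon and peptidase genes were -0.25, -0.20 and -0.15 (-0.24, -0.20 and -0.13 without Ssr2, which chose the set) and those of the ER stress genes -0.57, -0.52 and -0.44.

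Where the genes lie can affect how reads are counted. In GENCODE M21 (GRCm38), Ssr2 is on chromosome 3 from 88575876 to 88588419, plus strand, and contains the processed pseudogene Gm10704 on the other strand. Spcs2 is on chromosome 7 from 99837569 to 99863462, minus strand, overlaps Xrra1 on the other strand and has 1 pseudogene named after it elsewhere. Sec61b is on chromosome 4 from 47474658 to 47483242, plus strand, with no overlapping gene. Whether strand was used in counting is not given in the sources used here. Reads of Gm10704 may therefore not be separable from those of Ssr2, nor reads of Xrra1 from those of Spcs2. Reads shared with the pseudogene named after it would add to the uncertainty of Spcs2. On the other strand Glt8d1 overlaps Spcs1, Asb5 overlaps Spcs3 and the antisense gene Gm44170 overlaps Sec61a1, so that their reads may not be separable either.

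The 10 types with too few cells for the comparison held between 40 and 272 cells over all mice. In plasmacytoid dendritic cells, of which there were 50 in 7 mice, the summed level of the 10 genes had a median of 20.5 over mice (11.1 to 23.4), and in cDC2, 127 cells in 8 mice, it had a median of 16.4 (11.7 to 18.5). The erythrocyte label was the lowest of these types, with a median of 6.10 (4.62 to 14.9). With 2 to 22 cells per mouse in these 3 types, the values are given without comparison.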

How the data were processed

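Right lungs of 8 mice were profiled with 10x Genomics 3′ v3 chemistry. The authors aligned the reads to GRCm38.p6 with STAR 2.7.3a, counted spliced and unspliced UMIs, subtracted free RNA (SoupX) and annotated the clusters. The deposited matrix is called normalized but holds estimated counts, UMIs after removal of free RNA: 1.28% of its values are whole within 1e-06, and totals per cell run from 1001 to 198966. The cell table deposited with it gives genes per cell as counts and mitochondrial percent by the authors, at most 7.33 percent. Cells labelled Multiplet (1025) or Cell_cycle (7) were left out, with no further doublet caller.

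Each cell was scaled to 10000 transcripts, and cells were averaged per mouse and type. Types with at least 20 cells in at least 3 mice of each group were tested with limma 3.58.1 in R 4.3.3 (trend) on log2(mean + 1), a scale that understates changes of low genes, keeping a gene where 10% or more of the CS or of the RA cells held it, with a threshold of 0.05. In mesothelium C2, in peribronchial fibroblasts C2 and M3, and in the mast, NK and non-classical monocyte types F1 had under 20 cells and were left out. No count model was used, since the values are corrected counts.

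The members and lists were chosen with earlier results of these data known. Named were the 10 members, with values mouse by mouse for each pair that passed, for Ssr2 in goblet cells and for each member in its 2 highest types, up to 4 genes a list with the most calls, and the 5 genes most like the members. Other values were chosen after they were seen. Each sequencing lane, from the labels, held 1 CS and 1 RA mouse. Deviations of same-lane mice from their group means correlated at -0.27 to 0.392 in gCap cells, against -0.455 to 0.388 for a CS and an RA mouse of different lanes. The highest value was that of the same-lane mice D5 and M3. Same-lane values were -0.167 to 0.297 in ciliated cells and -0.18 to -0.016 in adventitial fibroblasts. The lane was kept as an alternative and not part of the fit, a choice that bears on the number of calls. A mouse whose lane partner was left out of a type, such as F1 in mesothelium, is also left out of the lane fit there. P-values measure the spread between these 8 libraries.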

Additional observations from a re-analysis of the deposited data

Results flagged for a closer look

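In adventitial fibroblasts, Ssr2 in CS mouse D2, at 0.781, stood apart from the other 3 CS mice, which lay between 0.817 and 0.821, although all 4 are close together. This was the single such sample in 24 groups of 4 mice examined. These groups belong to the pairs that passed and to Ssr2 in goblet cells, so a rate expected by chance does not apply to them.

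Sec61a1, Sec61b and Ssr1 stood on opposite sides in different types, with every CS mouse on 1 side of every RA mouse in each. The difference between types was not tested for any of them. Such a separation was found in 4.67% of all tests with CS mice below and in 6.01% with CS mice above, and Sec61a1 had 1 of 21 types each way, a share near these. Of the differences given here, that of Sec61b in adventitial fibroblasts alone passed by limma. Sec61a1 was lower in CS mice in mesothelium (log2 difference -0.23) and higher in classical monocytes (0.30). Sec61b was lower in gCap cells (-0.12), adventitial fibroblasts (-0.45), alveolar fibroblasts (-0.30) and mesothelium (-0.45) and higher in the cells labelled mast (0.14). Ssr1 was lower in alveolar macrophages (-0.25), alveolar fibroblasts (-0.13) and T cells (-0.15) and higher in classical monocytes (0.13).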

How the results depend on the processing

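The 6 member calls other than Ssr2 were lost in 44 of 108 refits. None changed direction, but this was largely fixed in advance. The groups did not overlap in these 6 pairs, so leaving out a mouse or blocking by lane could not reverse them. Changing the gene filter or dropping the trend leaves the difference itself unchanged. These 6 became 2 with the lane as a block (Spcs2 in mesothelium and alveolar fibroblasts), 0 with no gene filter (546357 tests in place of 172262), 1 to 4 with a mouse left out (1 without D5 or M3, 2 without C2, D2, F1 or F3, 3 without C5, 4 without M1) and 17 by a Wilcoxon test over single cells, which treats cells of a mouse as independent and also called 2 pairs higher, against 0. The other 8 settings gave 5 to 8. With the 6 Ssr2 calls, which chose the set and are no evidence of stability, the same counts were 12 as fitted, then 4, 2, 4 to 10 and 24. Of the 63 lower calls in the pathway lists 38 remained in number with the lane as a block, and 24 to 66 with a mouse left out, the fewest without D5. The 1 higher call became 0 with the lane, 2 under quantile normalization and 0 to 2 with a mouse left out. The 5 leading types by summed level were the same 5 in CS mice and under summed counts, and 4 of the 5 genes most like the members were also among the first 5 by Spearman's rho. Counting error is part of the spread between mice.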

Other observations

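Of the signal peptidase subunits, Sec11a had a lower mean in CS mice in 17 of 21 types, Sec11c in 16 of 22, Spcs1 in 14 of 22, Spcs2 in 22 of 22 and Spcs3 in 13 of 18, beside 45.8% of all tests. Of the ER stress genes not described above, Dnajc3 fell in 6 types, Pdia4, Sdf2l1 and Dnajb11 in 5 each, Hsp90b1, Xbp1 and Dnajb9 in 2 each and Hyou1 in 1, adventitial fibroblasts, where it went from 0.543 ± 0.0580 in RA to 0.197 ± 0.0384 in CS mice (SD, n = 4 each; limma adjusted p = 0.00497), a call that held in the 12 refits run. In the type of its largest difference, Hsp90b1 (adventitial fibroblasts, limma adjusted p = 0.0438) was lost with the lane as a block (0.138), under quantile normalization (0.0522) and with any mouse left out (0.0559 to 0.111), and Dnajb9 (adventitial fibroblasts, 0.0370) with the lane (0.102) and without C2, D5, F1, F3, M1 or M3 (0.0537 to 0.0933). In mesothelium Xbp1 (0.0302) was lost without C5, D2, D5, F1, M1 or M3 (0.0631 to 0.128), Dnajc3 (0.0439) without the same 6 mice (0.0649 to 0.173) and Pdia4 (0.0302) without C5, D2, D5 or M1 (0.0851 to 0.173).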
